A study of Glycine max with 2 samples.

Results

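The regions described here are the differentially methylated regions (DMRs) of the soybean scaffolds scaffold_22, scaffold_23 and scaffold_24 that the deposited annotation assigns to no gene. They were chosen by position alone, as the DMRs of these 3 scaffolds that do not occur in the annotation of promoters, UTRs, exons and introns, and they are called intergenic in that sense. There were 536 of them among 3527 DMRs, with 247 on scaffold_22, 154 on scaffold_23 and 135 on scaffold_24. Another 54 DMRs of the same scaffolds overlapped genes and serve only for comparison.

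Cytosine methylation was measured by whole-genome bisulfite sequencing of Glycine max flower buds at full bloom. NJCMS5A is a line with cytoplasmic male sterility (CMS), which makes no functional pollen, and NJCMS5B is the fertile line that maintains it and shares its nuclear background. For both lines, buds of several sizes were pooled and 1 library was made, so bud tissues and stages were mixed. No replicate library was analysed here, and every difference below is between 2 libraries and cannot be told apart from a difference between 2 DNA samples. A DMR is called hypo-methylated where its level was lower in NJCMS5A and hyper-methylated where it was higher.

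In plants, cytosines are methylated in the CG, CHG and CHH contexts, where H is any base but G, by different methyltransferases, and DNA outside genes carries much of this methylation because it is rich in transposable elements. Bisulfite turns unmethylated cytosines into uracil, and the level of a DMR is the percentage of calls at its cytosines that escaped this conversion. The levels analysed here pool the 3 contexts. Scaffolds are stretches of an assembly that were not placed on a chromosome, often because repeats interrupt the assembly. All positions are those of the deposited tables, which use the Williams 82 genome.

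Intergenic DMRs of both directions were found along all 3 scaffolds, whose full lengths were not used here. On scaffold_22 they ran from 1486 to 1240076, a span of 1239 kb, at 199 DMRs per Mb. On scaffold_23 they began at 57, and the span runs to 809499, where a DMR of Glyma.U026300 ends. That span is 809 kb and held 190 intergenic DMRs per Mb. On scaffold_24 they ran from 20031 to 727614, which is 708 kb, at 191 DMRs per Mb. The density of DMRs as called was thus nearly the same on the 3 scaffolds, but where both depths had to reach 10 it was 71.9, 96.4 and 49.5 per Mb. Intergenic DMRs covered 23.4%, 27.8% and 25.5% of the spans of scaffold_22, scaffold_23 and scaffold_24. The neighbouring scaffold_21 had 541 intergenic DMRs at 152 per Mb.

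**Figure D1:**
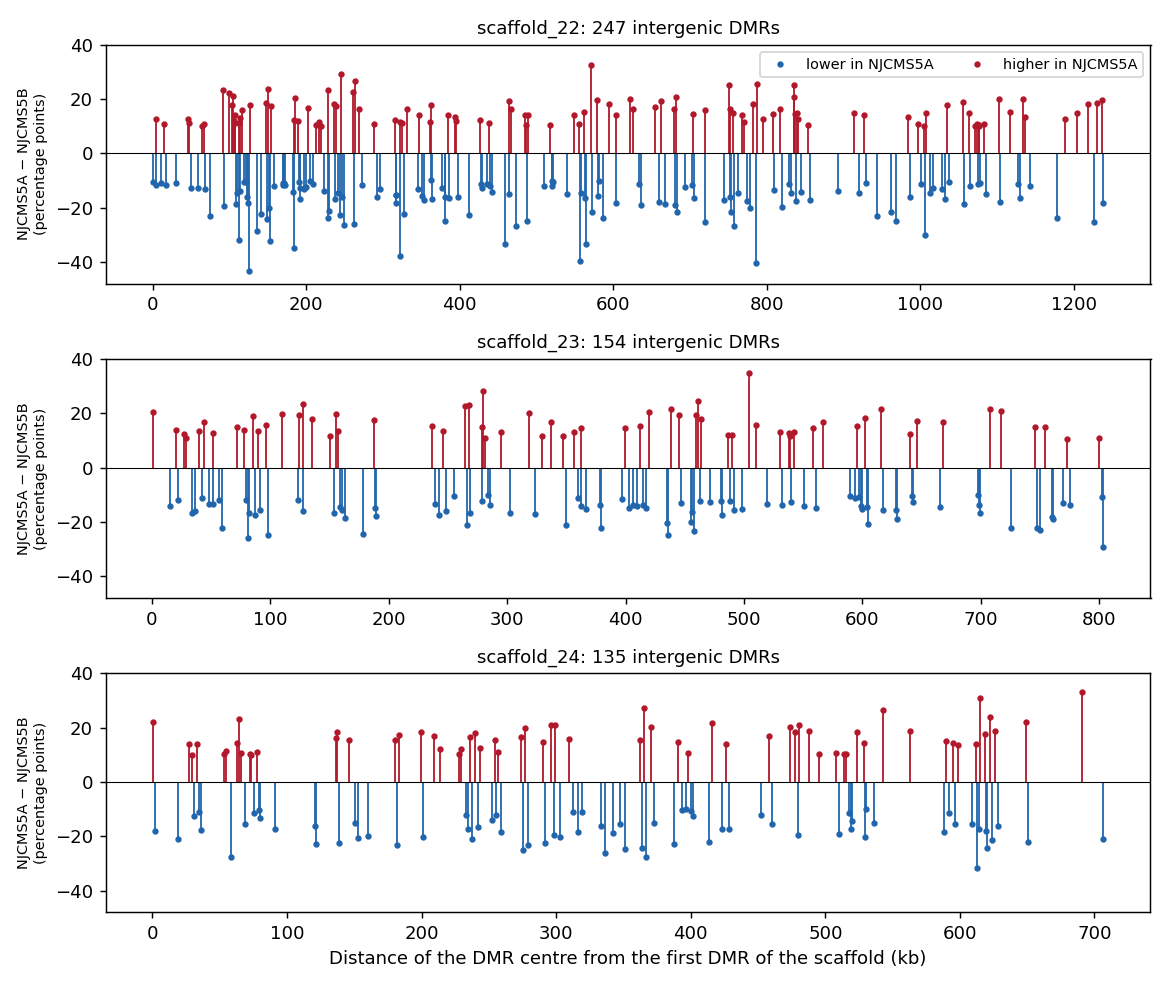
Difference in methylation level (NJCMS5A minus NJCMS5B, percentage points) of each intergenic DMR against the distance of its centre from the first intergenic DMR of its scaffold (kb). Each line with a point is 1 DMR, blue where the level was lower in NJCMS5A and red where it was higher; both colours occur along all 3 scaffolds, and the largest differed by 43.3 points.

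Within a scaffold the DMRs were not spread evenly. On scaffold_22, 41 started between 100 and 200 kb, the most in any stretch of 100 kb, and 25 of these were hypo-methylated, while the stretches from 900 to 1000 kb and from 1100 to 1200 kb held 10 each. On scaffold_23, the first 100 kb and the stretch from 400 to 500 kb each held 27, and in the latter 18 were hypo-methylated. On scaffold_24, the numbers ran from 11 between 100 and 200 kb to 24 between 200 and 300 kb, leaving out the incomplete last stretch, which held 2. Within scaffold_22 the full stretches of 100 kb thus held from 10 to 41 DMRs. The densities of whole spans average over such stretches, so their spread was not compared with this one.

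All 536 intergenic DMRs passed Fisher's exact test (two-sided, on methylated against unmethylated calls) at an adjusted p under 0.05. Since 100% of the 3527 DMRs passed, which reflects that the table holds only regions already called, passing says nothing particular about these scaffolds. The weakest was scaffold_24:472235-472284, with 11 cytosines, a level of 6.19% in NJCMS5A and 18.2% in NJCMS5B, at an adjusted p of 0.028 by Fisher's exact test. In the deposited table no DMR differed by under 10 percentage points, the ratio of the levels was never under 2, and the mean depth was never under 5, so smaller changes could not appear.

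As called, hypo-methylated DMRs were somewhat more frequent than hyper-methylated ones on each scaffold. They made up 140 of 247 on scaffold_22 (56.7%, 95% Wilson interval 50.4% to 62.7%), 90 of 154 on scaffold_23 (58.4%, 50.6% to 65.9%) and 72 of 135 on scaffold_24 (53.3%, 44.9% to 61.5%). Over all 3 scaffolds, 302 DMRs were hypo-methylated and 234 hyper-methylated, a hypo-methylated share of 56.3%. Over all 3527 DMRs, 55.8% were hypo-methylated and 44.2% hyper-methylated, a share close to that on these scaffolds. The 3 intervals overlapped broadly. Where both depths had to reach 10, the share was 49.4% on scaffold_22 and 40% on scaffold_24, so hypo-methylated DMRs were no longer the more frequent there. Intervals here and below cover counting error only, since DMRs next to each other are not independent. Measured by summed length instead of number, the hypo-methylated share was 58.4%, 55.9% and 55.7%. Among the 54 gene-overlapping DMRs of the scaffolds 28 were hypo-methylated (51.9%), and among 311 chromosome DMRs 70.1% were.

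Scaffold_24 had the highest median difference. The median size was 15.0 percentage points on scaffold_22 (95% interval of the median 14.5 to 16.2), 15.1 on scaffold_23 (14.3 to 15.8) and 16.9 on scaffold_24 (15.6 to 18.0). The interval of scaffold_24 overlapped both others, so these medians were not set apart by their intervals. The upper tail was ordered otherwise, with the largest difference of 43.3 points on scaffold_22, against 34.8 on scaffold_23 and 33.1 on scaffold_24. Over all DMRs of the table, the median was 16.7 points, and for chromosome DMRs it was 10.9.

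**Figure D2:**
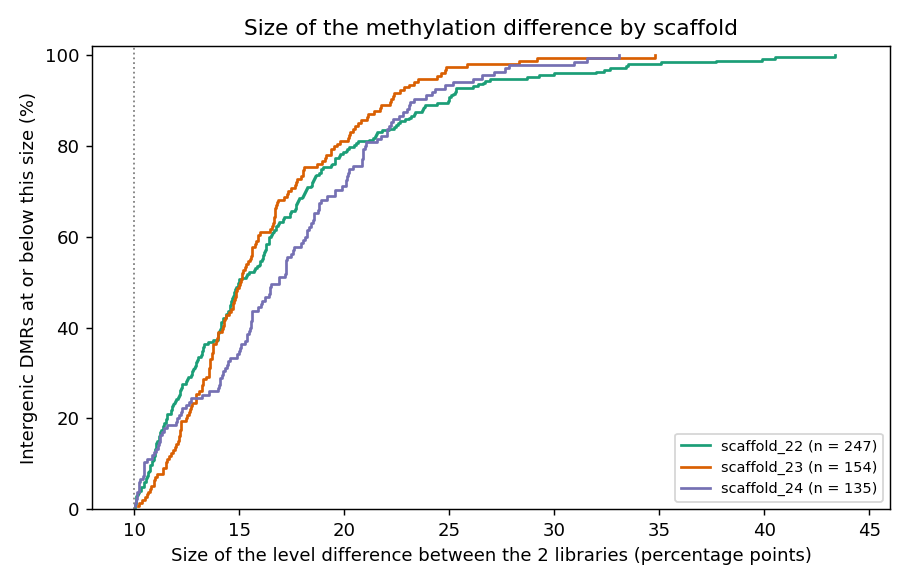
Cumulative share of intergenic DMRs (%) by the size of their level difference (percentage points), 1 line per scaffold; the dotted line marks 10 points, below which no DMR was listed. The line of scaffold_24 lies to the right of the others around the middle, with a median of 16.9 points against 15.0 and 15.1, and the line of scaffold_22 reaches farthest, to 43.3 points.

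A difference of at least 20 points was seen in 53 DMRs of scaffold_22 (21.5%), 29 of scaffold_23 (18.8%) and 39 of scaffold_24 (28.9%), against 33.9% of all DMRs. Of these, 37, 16 and 25 were hypo-methylated. A difference of at least 30 points was seen in 10, 1 and 3 DMRs, against 314 of all 3527 DMRs. Size was weakly related to the number of cytosines: Spearman's correlation coefficient across DMRs between the number of cytosines and the size was -0.28 on scaffold_22, -0.23 on scaffold_23 and -0.28 on scaffold_24, as a description of regions that share their libraries. The 5 largest differences of scaffold_22 rested on 10 to 28 cytosines each. The largest was scaffold_22:127449-127744, where 27 cytosines were at 19.4% in NJCMS5A (95% Wilson interval 15.1% to 24.4%, depth 10.3) and 62.7% in NJCMS5B (55.7% to 69.2%, depth 7.15). On scaffold_23 the largest was an increase at 504410 to 504586, where 22 cytosines were at 49.1% in NJCMS5A (42.8% to 55.5%) and 14.4% in NJCMS5B (10.2% to 19.9%). On scaffold_24 it was also an increase, at 710022 to 711520, where 51 cytosines were at 40.5% (37.0% to 44.0%) against 7.37% (4.96% to 10.8%), although the depths there were 14.6 and 6.12. These 3 regions were chosen after their values were seen.

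Most intergenic DMRs were moderately methylated in one library and still methylated in the other. The higher of the 2 levels had a median of 26.9% on scaffold_22, 26.0% on scaffold_23 and 29.7% on scaffold_24. The lower level had medians of 11.8%, 11.2% and 12.6%. In 7 of the 536 DMRs the higher level reached 50%, namely in 4 on scaffold_22 and 3 on scaffold_24, against 83 of all 3527 DMRs.

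A DMR that was nearly unmethylated in one library was uncommon. The lower level was under 5% in 26 DMRs of scaffold_22 (10.5%), 20 of scaffold_23 (13.0%) and 6 of scaffold_24 (4.44%). Over all DMRs of the table the share was 24.5%, and over the intergenic DMRs of scaffold_21 it was 18.3%. Among the 54 gene-overlapping DMRs of the scaffolds it was under 5% in 27, that is 50%. The median higher level at genes was 20.9% and the median lower level 5.24%, and the median difference there was 14.3 points. These values are side by side as a description, since no test between groups of regions was made.

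The 3 scaffolds also had DMRs of like length. The median length was 1094 bp on scaffold_22, 1198 bp on scaffold_23 and 1192 bp on scaffold_24, and the longest were 3400, 4679 and 3588 bp. Since DMRs were called in windows of 1000 bp that moved by 100 bp, those over 1000 bp join several windows, and these were 136, 98 and 87 of the DMRs (55.1%, 63.6% and 64.4%). Regions under 300 bp numbered 44, 17 and 13. The median number of cytosines was 212 on scaffold_22, 272.5 on scaffold_23 and 235 on scaffold_24, with 46, 16 and 17 DMRs under 50 cytosines. Gene-overlapping DMRs had a median of 1796 bp and 404 cytosines.

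The DMRs of scaffold_23 had the most counted cytosines per length, with a median of 221 per kb, against 199.6 on scaffold_22 and 197 on scaffold_24. The count is the one deposited for each DMR, and whether it holds every cytosine of the sequence was not examined. At genes of the 3 scaffolds the median was 242 per kb. Density went with size on scaffold_22 and scaffold_24, where the Spearman correlation between cytosines per kb and the size of the difference was -0.31 on both, and hardly on scaffold_23, where it was -0.05.

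Depth was moderate and similar in both libraries. The median depth, in calls per cytosine, was 10.9 in NJCMS5A and 9.95 in NJCMS5B on scaffold_22, 11.4 and 10.4 on scaffold_23, and 10.3 and 9.70 on scaffold_24. Depth over the 536 DMRs ran from 5.87 to 21.6 in NJCMS5A and from 5 to 41.7 in NJCMS5B. The median ratio of the depths, NJCMS5A over NJCMS5B, was 1.10 on scaffold_22 (95% interval 1.06 to 1.14), 1.09 on scaffold_23 (1.03 to 1.11) and 1.05 on scaffold_24 (1.02 to 1.14). All 3 intervals lay above 1.

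The depth ratio moved with the direction of the DMR. In hypo-methylated DMRs the median ratio was 1.16 on scaffold_22, 1.15 on scaffold_23 and 1.17 on scaffold_24. In hyper-methylated DMRs it was 1.03, 0.988 and 0.953. NJCMS5A was the deeper library in 103 of 140, 72 of 90 and 55 of 72 hypo-methylated DMRs (73.6%, 80% and 76.4%), and in 56 of 107, 29 of 64 and 27 of 63 hyper-methylated ones (52.3%, 45.3% and 42.9%). On each of the 3 scaffolds the share was thus higher among hypo- than among hyper-methylated DMRs. Over all 3527 DMRs NJCMS5A was the deeper library for 60.1% of hypo-methylated regions and 54.3% of hyper-methylated regions, and on scaffold_21 for 78.8% and 47.2% of the intergenic ones. The part of depth in the level differences was not tested.

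**Figure D3:**
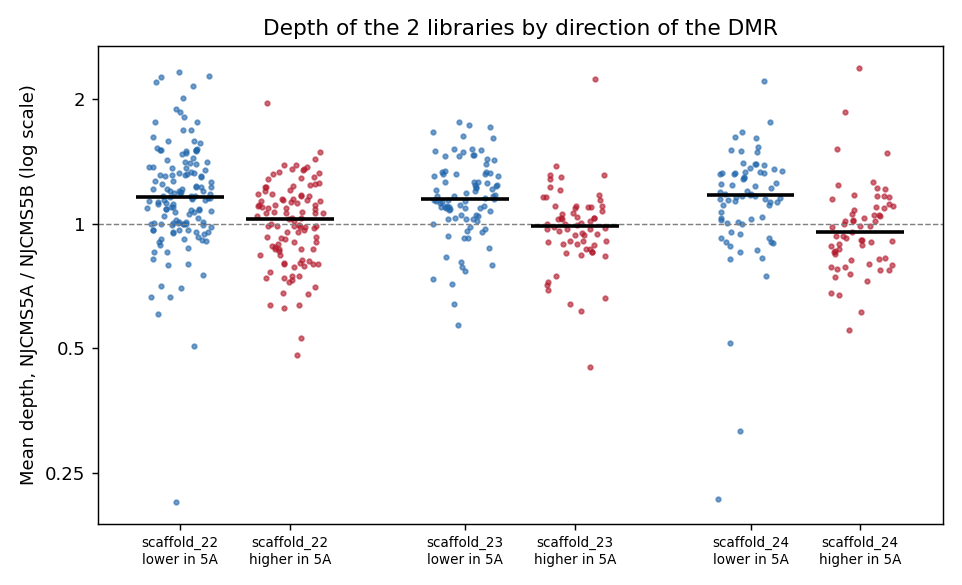
Ratio of the mean depths (NJCMS5A over NJCMS5B, log scale) of each intergenic DMR, by scaffold and direction; each point is 1 DMR, the black bar is the median of its column, and the dashed line marks equal depth. On each scaffold the median of DMRs lower in NJCMS5A, from 1.15 to 1.17, is above that of DMRs higher in NJCMS5A, from 0.953 to 1.03.

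The excess of hypo-methylated DMRs was largest in regions where only NJCMS5A was well covered. Of the 159 DMRs with a depth of at least 10 in NJCMS5A alone, 121 were hypo-methylated (76.1%, 68.9% to 82.1%). Of the 67 with such a depth in NJCMS5B alone, 23 were (34.3%, 24.1% to 46.3%). Of the 202 where both depths reached 10, the hypo-methylated share was 50% (43.2% to 56.8%), and of the 108 below 10 in both, 57 were (52.8%). The 3 scaffolds ran the same way in the first 2 classes, with 73.0%, 77.8% and 80% against 37.5%, 37.5% and 26.3%. Where both depths reached 10, hypo-methylated DMRs were 44 of 89 on scaffold_22, 43 of 78 on scaffold_23 and 14 of 35 on scaffold_24, so only scaffold_23 kept more hypo- than hyper-methylated DMRs. Over all 3527 DMRs the shares were 62.1% with such a depth in NJCMS5A alone, 47.4% in NJCMS5B alone, 56.0% in both and 53.6% in neither. On scaffold_21 they were 79.2%, 20.4%, 52.4% and 43.3%.

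In 14 intergenic DMRs the depths differed more than 2-fold. NJCMS5A was the deeper in 6 DMRs of scaffold_22, 1 of scaffold_23 and 2 of scaffold_24. NJCMS5B was the deeper in 2, 1 and 2. The depths were at their highest in NJCMS5B at the last DMR of scaffold_24, scaffold_24:725115-727614, where 199 cytosines were at 13.1% in NJCMS5A (95% Wilson interval 11.6% to 14.7%, depth 9.02) and 34.1% in NJCMS5B (33.1% to 35.1%, depth 41.7). The deepest on scaffold_22 was scaffold_22:114655-114744, with 13 cytosines at 5% in NJCMS5A (1.96% to 12.2%, depth 6.15) and 37.0% in NJCMS5B (32.2% to 42.0%, depth 28.9). The deepest on scaffold_23 was evenly covered: scaffold_23:47362-48548 had depths of 14.0 and 13.6, with 182 cytosines at 7.36% and 20.7%. So the 2 deepest of these regions, but not the third, were deep in NJCMS5B only.

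Directions alternated along the scaffolds. Of the 246 pairs of neighbouring intergenic DMRs on scaffold_22, 94 had the same direction (38.2%, 32.4% to 44.4%), while any 2 DMRs of that scaffold had the same direction in 50.7% of pairs. On scaffold_23 it was 52 of 153 (34.0%, 27.0% to 41.8%, against 51.1%), and on scaffold_24 45 of 134 (33.6%, 26.1% to 41.9%, against 49.9%). Each interval lay below the share over all pairs of its scaffold. Scaffold_21 showed the same, with 176 of 540 (32.6%), whereas neighbouring chromosome DMRs had the same direction in 183 of 291 pairs (62.9%). The chromosome DMRs were far apart, with 279 of the 291 gaps at 5000 bp or more.

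The alternation was not limited to touching regions. Over the 3 scaffolds, neighbours less than 500 bp apart had the same direction in 65 of 201 pairs (32.3%), those from 500 to under 2000 bp apart in 39 of 99 (39.4%), those from 2000 to under 5000 bp apart in 33 of 92 (35.9%) and those at least 5000 bp apart in 54 of 141 (38.3%). The caller joins windows into longer DMRs, so close neighbours of the same direction could already have been merged. How far this lowered the shares at short gaps was not tested. Overlapping windows of the caller also share cytosines, so the pairs at least 2000 bp apart are given for each scaffold. They had the same direction in 43 of 115 on scaffold_22 (37.4%, 29.1% to 46.5%), 21 of 67 on scaffold_23 (31.3%, 21.5% to 43.2%) and 23 of 51 on scaffold_24 (45.1%, 32.3% to 58.6%). On scaffold_24 the alternation was thus seen at short gaps, where it was not separated from the effect of such merging. Beyond 2000 bp the interval of scaffold_24 included the 49.9% over all pairs. Among DMRs that differed by at least 20 points the share with the same direction was 53.8%, 46.4% and 44.7%.

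**Figure D4:**
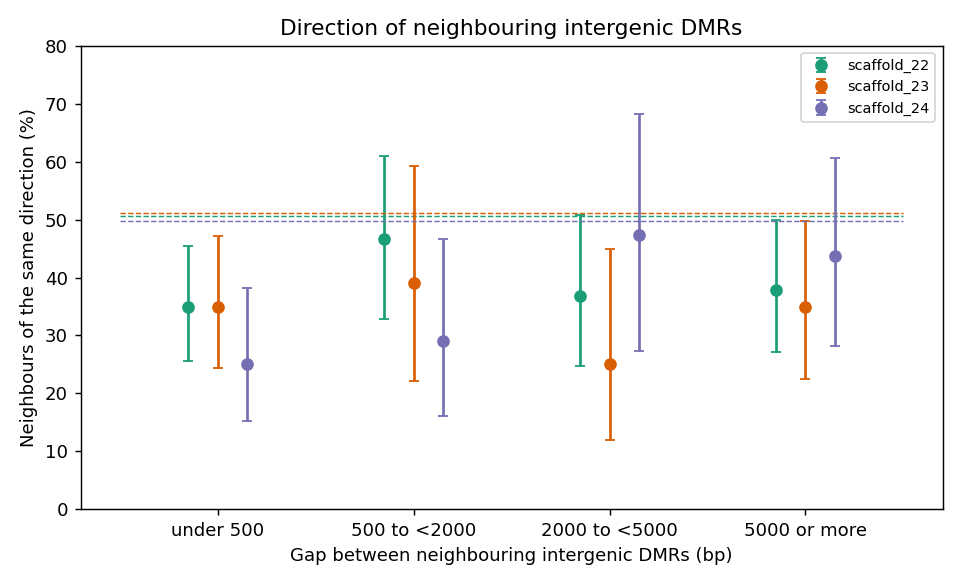
Share of neighbouring intergenic DMRs with the same direction (%) by the gap between them (bp), for each scaffold; bars are 95% Wilson intervals, and the dashed lines give the share over all pairs of DMRs of the scaffold, from 49.9% to 51.1%. All points lie below the dashed lines, and at gaps under 500 bp the whole interval does so on all 3 scaffolds; several intervals at wider gaps reach across the lines.

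The order of the directions was not symmetric. Reading by rising coordinate, a hyper-methylated DMR was followed by a hypo-methylated one in 76, 51 and 45 pairs on scaffold_22, scaffold_23 and scaffold_24. The reverse occurred in 76, 50 and 44 pairs. Along a scaffold these changes must take turns, so their counts are near equal by construction and are no result. The gaps differed. From hyper- to hypo-methylated, the median gap was 407.5 bp on scaffold_22, 305 bp on scaffold_23 and 402 bp on scaffold_24. From hypo- to hyper-methylated, it was 3458, 2401 and 1558.5 bp. Gaps under 500 bp made up 51.3%, 54.9% and 53.3% of the first kind and 22.4%, 26.0% and 34.1% of the second. Over the 3 scaffolds, 91 pairs with a gap under 500 bp had the hyper-methylated DMR first and 45 the hypo-methylated one, so short gaps held both orders in unequal numbers.

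Another count set every hypo-methylated DMR against every hyper-methylated DMR nearby. It includes many of the neighbouring pairs above, so it is no separate support for the order. Its distance limits were chosen with these data known. With centres 0.5 to 3 kb apart, the hypo-methylated one had the higher coordinate in 74 pairs and the lower in 32 on scaffold_22 (69.8% after, 60.5% to 77.7%), in 39 and 18 on scaffold_23 (68.4%, 55.5% to 79.0%) and in 40 and 23 on scaffold_24 (63.5%, 51.1% to 74.3%). At 3 to 6 kb the counts were near even, with 43 and 40, 26 and 30, and 30 and 22. The distance that held the most pairs was 2000 to 2500 bp on scaffold_22, with 20 pairs, 2000 to 2500 bp on scaffold_23, with 11, and 1500 to 2000 bp on scaffold_24, with 17. On scaffold_21 the counts at 0.5 to 3 kb were 135 and 76.

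**Figure D5:**
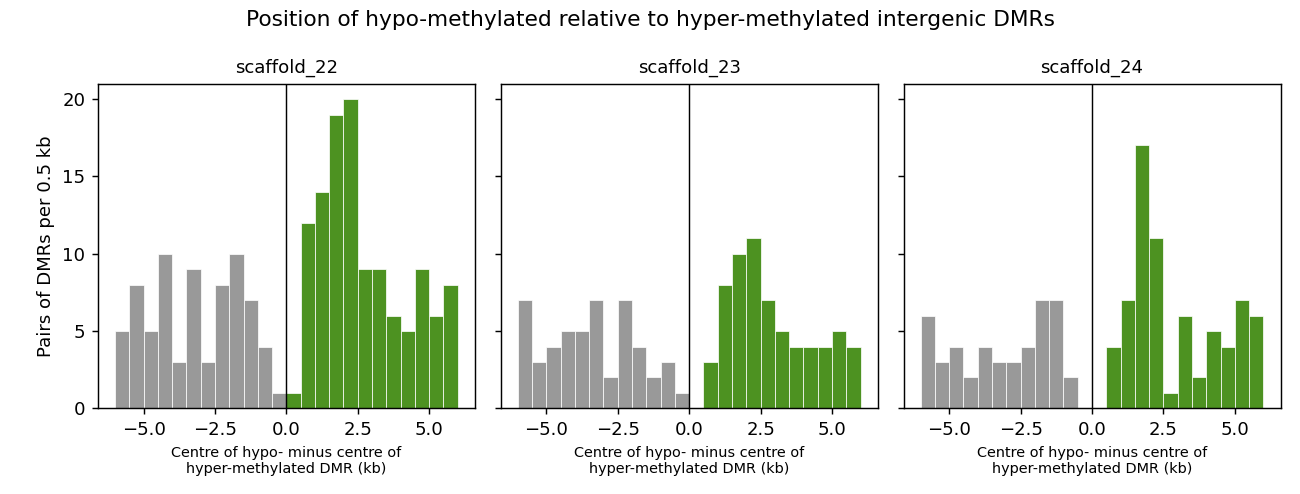
Number of pairs of 1 hypo-methylated and 1 hyper-methylated intergenic DMR, in steps of 0.5 kb of the distance from the hyper- to the hypo-methylated centre (kb), for each scaffold; green bars are pairs with the hypo-methylated DMR at the higher coordinate, grey bars those with it at the lower one. Green bars peak between 1.5 and 2.5 kb on all 3 scaffolds, with no such peak among the grey bars.

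The order was kept when both depths had to reach 10, with 33 pairs after and 15 before over the 3 scaffolds. Among DMRs that differed by at least 20 points there were 11 pairs after and 11 before, too few to tell whether the order was kept. The cause of the order was not tested. Whether positions on these scaffolds stand for the same DNA in the 2 libraries was not tested either, and every level difference given here rests on it.

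In the densest stretch of 20 kb, the direction changed in a larger share of steps on scaffold_23 and scaffold_24 than on scaffold_22. On scaffold_22, 15 intergenic DMRs started within 20 kb, from 104981 to 125342, 7 hypo- and 8 hyper-methylated, with differences of 10.5 to 32.0 points, and the direction changed 7 times in 14 steps, with 5 hyper-methylated DMRs in a row at its start. Within it, scaffold_22:115049-116642 was at 10.5% in NJCMS5A and 24.2% in NJCMS5B, and scaffold_22:116652-118774, which starts within 10 bp of it, was at 22.5% and 6.51%. On scaffold_23, 9 DMRs lay between 71863 and 92153, 5 hypo- and 4 hyper-methylated, with 5 changes of direction in 8 steps. There scaffold_23:88268-90336 was at 26.3% against 12.7%, and scaffold_23:90365-92153 at 10.4% against 25.9%. On scaffold_24, 12 DMRs lay between 627807 and 648677, 7 hypo- and 5 hyper-methylated, with differences of 14.0 to 31.6 points and 8 changes in 11 steps. Within it, 3 DMRs that nearly touch were at 21.1% against 45.4% (scaffold_24:639690-641378), 41.2% against 17.3% (scaffold_24:641383-643176) and 18.6% against 40.1% (scaffold_24:643183-645175). Each of the 3 scaffolds thus held at least 1 run in which the higher library changed from one DMR to the next.

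The closest pairs of opposite direction with at least 100 cytosines each touched without a gap on all 3 scaffolds. Touching regions of the same direction could have been joined by the caller, so such pairs are examples and no measure of alternation. On scaffold_22 the region from 1075407 to 1076803 was at 8.23% in NJCMS5A and 19.4% in NJCMS5B, and the next one, from 1076804 to 1077888, at 16.9% and 6.75%. On scaffold_23 the region from 358275 to 361872, with 1002 cytosines, was at 7.59% and 18.7%, and that from 361873 to 362271 at 26.8% and 12.1%. These pairs had the hypo-methylated DMR first. On scaffold_24 the hyper-methylated one came first, with 27.1% and 11.6% from 273767 to 274926, then 9.33% and 21.6% from 274927 to 276026.

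Among DMRs that had 100 or more cytosines and reached a depth of 10 in NJCMS5A and in NJCMS5B, which were 77 on scaffold_22, 72 on scaffold_23 and 31 on scaffold_24, single regions are named by the size of their difference. On scaffold_22 the largest decrease lay at 944306 to 945403, where 175 cytosines were at 19.1% in NJCMS5A (17.4% to 20.9%, depth 10.7) and 42.3% in NJCMS5B (40.1% to 44.5%, depth 11.2), with an adjusted p of 8.3e-55 by Fisher's exact test. It ended 2 bp before a DMR of the opposite direction in Glyma.U023900, from 945405 to 947701, which was at 23.3% in NJCMS5A and 3.44% in NJCMS5B and covered exon, intron and 3′UTR. The next decreases were at 1238704 to 1240076 (18.2% against 36.7%, the last DMR of the scaffold), 856506 to 858802 (7.86% against 25.3%) and 354651 to 356342 (16.2% against 33.3%). The third of these 4 lay 1405 bp before a hyper-methylated DMR of Glyma.U023700, a gene whose GO terms include regulation of transcription, which was at 15.6% against 1.90%.

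Within these limits, the largest increase of scaffold_22 lay at 230552 to 230845, where 119 cytosines were at 43.7% in NJCMS5A (41.2% to 46.3%) and 20.3% in NJCMS5B (18.2% to 22.6%). At 1218007 to 1220703 the level was 20.2% in NJCMS5A and 2.15% in NJCMS5B, the lowest level in either library among the named increases of this scaffold. That region ended 2011 bp before a DMR of Glyma.U024500, annotated with DNA binding and protein dimerization, which went the other way, at 0.317% in NJCMS5A and 10.5% in NJCMS5B. The regions at 1034826 to 1036797 and 240150 to 241735 were at 29.2% against 11.4% and 32.5% against 15.0%. The longest intergenic DMR, 3400 bp with 813 cytosines from 223747 to 227146, was hypo-methylated, at 4.34% (3.94% to 4.77%) against 18.3% (17.5% to 19.2%). The region from 230552 to 230845 followed it within 5 kb.

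By the same limits of 100 cytosines and a depth of 10, the largest decrease of scaffold_23 lay at 379279 to 379772, with 17.1% in NJCMS5A (15.2% to 19.3%, depth 10.5) and 39.5% in NJCMS5B (36.9% to 42.1%, depth 10.9) and an adjusted p of 6.7e-38 by Fisher's exact test. The region from 348273 to 350766 followed, at 4.97% against 26.1%, and it lay 2602 bp after a DMR of Glyma.U025300, annotated with protein binding, that was also hypo-methylated, at 5.79% against 18.5%. The other named decreases, at 759520 to 762016 (9.94% against 29.0%) and 759422 to 760417 (5.32% against 23.4%), overlap and share cytosines. Both lay next to a promoter DMR of Glyma.U026000, from 758119 to 759416, that was hyper-methylated, at 20.7% against 8.26%. This is again a hyper-methylated DMR followed by hypo-methylated ones.

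Within the limits of 100 cytosines and a depth of 10 in both libraries, scaffold_23 had its largest increase at 263876 to 265067, with 44.4% in NJCMS5A (43.0% to 45.9%) and 21.8% in NJCMS5B (20.6% to 23.0%). The first region of the scaffold, from 57 to 2241, with 554 cytosines, was at 21.9% (20.9% to 22.9%) against 1.37% (1.12% to 1.68%), so it was nearly unmethylated in NJCMS5B. At 108872 to 111355 the levels were 24.3% and 4.53%. That region lay 4702 bp before a hypo-methylated DMR of Glyma.U025000, annotated with protein kinase activity, at 1.89% against 12.8%. The region from 317176 to 319665 was at 32.3% against 12.1%. The longest intergenic DMR of the 3 scaffolds was hyper-methylated, 4679 bp with 1207 cytosines from 292575 to 297253, at 19.9% (19.3% to 20.5%) against 6.98% (6.56% to 7.41%).

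On scaffold_24 the largest decrease within the limits of 100 cytosines and a depth of 10 lay at 528714 to 531311, where 512 cytosines were at 3.56% in NJCMS5A (3.13% to 4.05%, depth 12.1) and 22.7% in NJCMS5B (21.6% to 23.8%, depth 10.8), with an adjusted p of 8e-229 by Fisher's exact test. It lay 1504 bp after a DMR in exon and intron of Glyma.U026500 that was hypo-methylated too, at 0.255% against 10.9%. The other named decreases were at 55438 to 56127 (11.0% against 28.5%), 87131 to 90114 (6.86% against 22.5%) and 616188 to 617278 (12.7% against 28.2%). All 3 of these lay more than 88 kb from any DMR at a gene.

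The largest increase of scaffold_24 within these limits was in its densest stretch, at 641383 to 643176, with 41.2% in NJCMS5A (39.7% to 42.7%) and 17.3% in NJCMS5B (16.1% to 18.6%). The regions at 296037 to 297921, 496717 to 498212 and 476529 to 479202 followed, at 34.1% against 14.2%, 30.1% against 11.7% and 29.9% against 13.0%. The longest DMR, 3588 bp with 988 cytosines from 513216 to 516803, was hyper-methylated, at 16.9% (16.2% to 17.6%) against 6.63% (6.19% to 7.11%). It lay 2211 bp before a hypo-methylated DMR in exon and intron of Glyma.U026400, at 0.257% against 11.9%. A hyper-methylated promoter DMR of Glyma.U026500, at 11.5% against 0.900%, started within 10 bp of the end of the latter.

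Most intergenic DMRs lay far from any DMR at a gene. The median distance was 55.2 kb on scaffold_22, 20.2 kb on scaffold_23 and 182.5 kb on scaffold_24. Those within 5 kb of one numbered 23 (9.31%), 24 (15.6%) and 3 (2.22%). The scaffolds had 15, 11 and 2 of their own genes with a DMR, and scaffold_24, with the fewest, had the longest distances. On scaffold_24 a single stretch of 499 kb, from 20031 to 519014, held 99 intergenic DMRs, 53 hypo- and 46 hyper-methylated, with no DMR at a gene. On scaffold_22 the first 338 kb, up to 339847, held 94 such DMRs, 55 hypo- and 39 hyper-methylated, before the first DMR of Glyma.U022900, which carries protein kinase activity among its GO terms. On scaffold_23 the longest stretch of this kind, 224 kb from 118254 to 341875, held 38, of which 20 were hypo-methylated. Distances here are to genes with a DMR, since genes without one were not analysed here.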

How the data were processed

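Bisulfite sequencing of flower bud DNA gave 1 library of NJCMS5A and 1 of NJCMS5B. The authors aligned reads to the Williams 82 genome with Bismark 0.12.5, kept reads that mapped uniquely, and ran swDMR with windows of 1000 bp, steps of 100 bp and an FDR of 0.05. Uniquely mapped reads leave out copies of repeats that cannot be told apart, which bears on scaffolds.

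In the deposited table of DMRs the methylation level is a fraction, not corrected for unconverted cytosines, and was printed here as percent. The coverage deposited by the authors is the mean depth per cytosine, not normalised between libraries. The authors' ratios, differences and p-values, their GO p-values and their KEGG results were not used; their promoters reach 2 kb upstream, and gene and GO term names are theirs.

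Calls were recovered as level times depth times cytosines, which came out whole within 0.01 in 3527 of 3527 DMRs, and each DMR was tested by Fisher's exact test, two-sided, with p-values adjusted over 3527 by the Benjamini-Hochberg method, after the test had been tried on simulated data. Summed over the 536 regions, NJCMS5A had 1565101 calls and NJCMS5B 1470026. Scaffolds were compared by counts and medians with 95% intervals (Wilson for shares, order statistics for medians), with no test between them. Spans run from the first to the last DMR of a scaffold, intergenic or not, since scaffold lengths were not used here. Regions were named as the 4 largest increases and decreases per scaffold among DMRs of 100 or more cytosines where both depths reached 10, the longest, the deepest, the closest opposite pair and the densest stretch of 20 kb with at least 8 DMRs. The region cloned by the authors on scaffold_22 lay in a DMR of Glyma.U023400 and was therefore no member. The members, lists and tests were chosen with earlier results of these data known. Alternatives were each cytosine counted once, depths of 10 or more, depths of at most 50, at least 20 points, at least 50 cytosines, depths within 1.5-fold, merging of neighbours of the same direction at most 1000 bp apart and inclusion of gene-overlapping DMRs. Tools were scipy 1.17.1, numpy 2.4.6, matplotlib 3.10.9 and pandas 2.3.3 under Python 3.11.15.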

Additional observations from a re-analysis of the deposited data

How the results depend on the processing

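Of 167 alternative values, 131 were counted as unchanged. Of these, 21 came from the limit of a depth of at most 50, which removed no DMR and could change nothing. DMR counts have no spread here, and 201 against 247 on scaffold_22, with at least 50 cytosines, was still counted as unchanged. Values for scaffold_22, scaffold_23 and scaffold_24 are given in this order. Where both depths had to reach 10, 89, 78 and 35 DMRs were left (71.9, 96.4 and 49.5 per Mb), the median size was 13.0, 13.8 and 14.0 points and the median depth ratio 1.05, 1.03 and 1.01. The hypo-methylated share fell to 49.4% (95% Wilson interval 39.3% to 59.6%), 55.1% (44.1% to 65.7%) and 40% (25.6% to 56.4%). Each interval includes 50%, so neither direction was set apart as the more frequent. The share of hypo-methylated centres after a hyper-methylated one was 77.8% on scaffold_24, from only 7 pairs after and 2 before. With a difference of at least 20 points, 53, 29 and 39 were left (42.8, 35.8 and 55.1 per Mb), and the median size was 24.4, 22.3 and 22.3 points. The hypo-methylated share was 69.8% on scaffold_22 and 64.1% on scaffold_24, and neighbours of the same direction made up 53.8%, 46.4% and 44.7%. The share after was 53.8%, 50% and 42.9%, from 7 pairs after and 6 before, 1 and 1, and 3 and 4. These pairs are too few to give a direction on any of the scaffolds. Fewer DMRs enter under both settings by construction, and the limit of 20 points raises the median size by construction. The limit on depth removes DMRs where a single library reached it, which bears on the depth ratio. The cause of the other shifts was not tested. Merging neighbours lowered the same-direction share to 28.3%, 22.3% and 23.9% by construction, and on scaffold_24 neighbours at least 2000 bp apart had 45.1%; the latter, the inclusion of gene-overlapping DMRs as neighbours, and all settings of the order of directions were chosen after seeing the data. Counting each cytosine once left 204, 139 and 119 DMRs past the test, and the 43, 15 and 16 lost had medians of 21, 34 and 19 cytosines. No DMR had a depth over 50. No paired analysis was possible because each line had 1 library, and for the same reason no replicate could be left out. Few cytosines limit the short DMRs, of which 79 had under 50.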
